A study of Mus musculus with 13 samples.

Results

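Cumulus expansion genes were followed through all 13 sequencing libraries of a study of the RNA acetyltransferase NAT10 in mouse oocytes. The group is a list of 9 genes, Has2, Tnfaip6, Ptx3, Vcan, Cd44, Ptgs2, Areg, Ereg and Btc, named for their known role in cumulus expansion. The list uses no threshold on a measured value, but it was drawn up with earlier results of these data known. All 9 were found by Ensembl identifier among the 22442 genes counted in the Ribo-seq libraries and the 21898 counted in the acRIP-seq libraries. The question was how much RNA of the cumulus cells around the oocyte each library carried, and of which stage.

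Before ovulation the oocyte is wrapped in cumulus cells, a specialized form of granulosa cell. The surge of luteinizing hormone makes the follicle wall release the EGF-like ligands amphiregulin, epiregulin and betacellulin, which reach the cumulus cells and switch on, together with factors from the oocyte, the genes that build a hyaluronan matrix. The matrix swells, the complex is ovulated, and the oocyte completes the first meiotic division. The expansion genes are therefore textbook markers of cumulus cells that have received the ovulatory signal, whereas other granulosa genes are on before it.

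Ribo-seq counts ribosome-protected fragments (RPFs), the short pieces of mRNA that a ribosome shields from nuclease, on the coding sequence (CDS) of each gene. There were 3 WT GV, 3 Nat10-ZcKO GV, 2 WT MII and 3 Nat10-ZcKO MII libraries, each from about 100 oocytes. acRIP-seq pulled down mRNA fragments from about 2000 WT GV oocytes a library, with an antibody against N4-acetylcytidine (ac4C) in 1 library and an IgG antibody in the other. GV oocytes are arrested in the first meiotic prophase with an intact germinal vesicle, and MII oocytes are arrested at the second metaphase after ovulation.

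WT animals carried no deletion of Nat10, and in Nat10-ZcKO animals Zp3-Cre, which is active in oocytes from the primary follicle on, deleted exons 4 and 5 of Nat10. The knockout is written as Nat10 lox/-; Zp3-Cre, so its granulosa and cumulus cells, as written, carry 1 deleted allele beside a floxed one. All animals were of the C57BL/6J background, and the sources used here do not say whether the WT animals carried floxed alleles. The text of the series mentions 3 days of tamoxifen for the knockout, which the methods do not give for Zp3-Cre. In the methods, 21-day-old females received 5 IU of PMSG, and GV oocytes were taken after 48 h with no ovulatory signal. For MII oocytes 5 IU of hCG, which stands in for luteinizing hormone, followed PMSG at 46 h, and cumulus-oocyte complexes were collected from the oviduct 16 h later and freed of cumulus cells with hyaluronidase. These timings are given for oocyte collection and superovulation in general and are not tied to the sequenced samples. Oocytes for Ribo-seq were held in cycloheximide, which stalls ribosomes, before lysis.

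The libraries held 42360 to 279464 counts apart from WT MII replicate 2, which held 4815 counts on 523 genes, 1 of them on the 12 oocyte markers examined. Its single count is worth 208 CPM (counts scaled to the library total), and a count of 0 in it allows a level of up to 623 CPM, taking 3 counts as the limit. Elsewhere a count of 0 allows 10.7 to 70.8 CPM. Nat10-ZcKO GV replicates 1 and 2 also stood apart, with oocyte markers at 0.00944% and 1.12% of their counts against 3.78% to 6.71% in the other GV libraries. The labels do not say that replicates came from separate animals, so p-values measure the spread between these libraries. Copies made by PCR are not separate molecules, and intervals and limits therefore speak to counting error alone.

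The genes lie apart in the genome (GRCm38). Ptx3 is on chromosome 3 from 66219910 to 66225805, Tnfaip6 on chromosome 2 from 52038009 to 52056686, Ptgs2 on chromosome 1 from 150100031 to 150108227, Has2 on chromosome 15 from 56665627 to 56694539, Vcan on chromosome 13 from 89655312 to 89742509 and Cd44 on chromosome 2 from 102811141 to 102901665. The 3 EGF-like ligands are neighbours on chromosome 5, Ereg from 91074622 to 91093646, Areg from 91139599 to 91148432 and Btc from 91357261 to 91402994. Counts were on the joined coding exons, from 486 bp for Ereg to 10206 bp for Vcan, and no exon of another annotated gene overlapped an exon of the 9.

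The promoters of Ptx3, Tnfaip6 and Ptgs2, which rose most between the stages, and of Areg, which had no footprint at either stage, are shown from RefSeq (GRCm38.p6) with 250 bases before and 50 after the start, written 5′ to 3′ on the gene's strand. Capitals mark the short cAMP response element (CRE) motif tgacg, the GC box gggcgg and the NF-kB motif on either strand, and the TATA box core tataa on the gene's strand.
Ptx3, chr3:66219637-66219936, + strand: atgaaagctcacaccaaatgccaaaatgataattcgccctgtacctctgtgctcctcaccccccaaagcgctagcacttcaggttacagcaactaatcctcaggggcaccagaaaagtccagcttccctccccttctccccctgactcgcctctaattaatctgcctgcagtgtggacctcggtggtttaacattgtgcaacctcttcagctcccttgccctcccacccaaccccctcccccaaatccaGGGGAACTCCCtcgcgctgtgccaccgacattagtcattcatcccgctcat
Tnfaip6, chr2:52037863-52038162, + strand: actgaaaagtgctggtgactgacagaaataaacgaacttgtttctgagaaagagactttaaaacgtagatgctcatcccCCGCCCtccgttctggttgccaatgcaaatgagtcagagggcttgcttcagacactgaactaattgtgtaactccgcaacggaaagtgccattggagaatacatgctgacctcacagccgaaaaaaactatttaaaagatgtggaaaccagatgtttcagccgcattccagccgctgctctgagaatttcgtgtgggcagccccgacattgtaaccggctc
Ptgs2, chr1:150099781-150100080, + strand: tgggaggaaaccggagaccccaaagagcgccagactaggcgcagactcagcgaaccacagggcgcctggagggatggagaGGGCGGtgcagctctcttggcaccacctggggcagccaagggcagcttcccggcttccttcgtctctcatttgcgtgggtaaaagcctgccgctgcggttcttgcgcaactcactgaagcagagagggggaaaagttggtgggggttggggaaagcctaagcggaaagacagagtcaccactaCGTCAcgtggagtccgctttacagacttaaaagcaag
Areg, chr5:91139349-91139648, + strand: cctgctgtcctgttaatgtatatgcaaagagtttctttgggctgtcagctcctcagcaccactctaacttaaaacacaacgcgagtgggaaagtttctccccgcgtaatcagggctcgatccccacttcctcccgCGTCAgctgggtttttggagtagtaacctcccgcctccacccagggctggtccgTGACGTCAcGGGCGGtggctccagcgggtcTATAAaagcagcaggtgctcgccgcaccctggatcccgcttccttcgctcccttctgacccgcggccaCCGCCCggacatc

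RefSeq windows were matched for 7 of the 9 genes, and these letter matches are descriptions of the windows. The short CRE motif stood in 3 of the 7 (Ptgs2, Areg and Btc) and in 20.8% of all 32851 windows of this length. Areg also held the full CRE tgacgtca, which overlaps the short one and stands in 1.79% of windows, and the TATA box core, which stands in 17.5%. The GC box stood in 5 of the 7 windows and in 35.7% of all. The NF-kB motif stood in Ptx3 (8.46% of windows), an AP-1 site tgantca in Tnfaip6 (7.81%) and the E box cacgtg in Ptgs2 (7.15%), each searched on both strands. No motif was shared by the 3 promoters of Ptx3, Tnfaip6 and Ptgs2.

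In the Ribo-seq libraries the expansion genes separated the MII from the GV libraries. Their summed level was 131, 218 and 239 CPM in the WT GV libraries and 118, 58.0 and 173 CPM in the Nat10-ZcKO GV libraries. In MII it was 4019 and 208 CPM in WT and 2506, 1145 and 1591 CPM in Nat10-ZcKO. WT MII replicate 2, whose value is 1 count, lay within the GV range, and the 4 other MII libraries lay above it. The mean was 1894 ± 1448 CPM (SD, n = 5) in MII and 156 ± 67.5 CPM (SD, n = 6) in GV, and 2315 ± 1270 CPM (SD, n = 4) in MII without WT MII replicate 2.

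**Figure D1:**
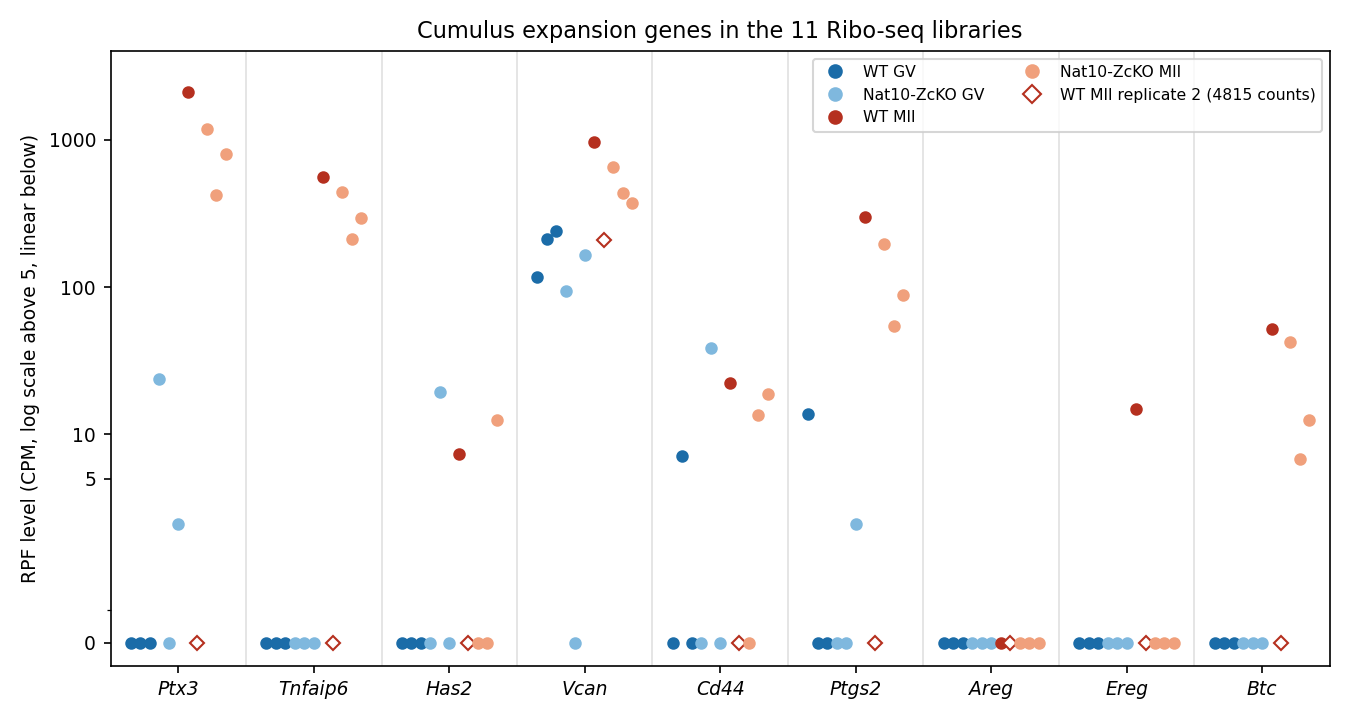
RPF level of each of the 9 genes (CPM, log scale above 5 and linear below) in each Ribo-seq library, 1 point a library, coloured by group. Ptx3, Tnfaip6 and Ptgs2 sat at or near 0 in GV and were raised in 4 of the 5 MII libraries. The exception was WT MII replicate 2 (open diamonds), which held 4815 counts in all. Btc sat at 0 in GV, and its levels in Nat10-ZcKO MII replicates 2 and 3 were under the limit of 3 counts.

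Ptx3 encodes pentraxin 3, which cross-links the hyaluronan-bound heavy chains that hold the matrix together. It had no count in the WT GV libraries and 1, 0 and 1 counts in the Nat10-ZcKO GV libraries. WT MII held 285 and 0 counts (2114 and 0 CPM), and Nat10-ZcKO MII held 221, 62 and 127 (1176, 423 and 795 CPM). Every MII library but WT MII replicate 2 was far above the highest GV library at 23.6 CPM. In WT MII replicate 1 it was the 36th most counted gene.

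Tnfaip6 encodes TSG-6, the enzyme that moves the heavy chains onto hyaluronan. It was at 0 counts in all 6 GV libraries. WT MII held 75 and 0 counts (556 and 0 CPM), and Nat10-ZcKO MII held 83, 31 and 47 (442, 211 and 294 CPM). The groups overlapped through WT MII replicate 2 alone.

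Ptgs2 encodes cyclooxygenase 2, which makes the prostaglandin that drives expansion forward. WT GV libraries held 2, 0 and 0 counts and Nat10-ZcKO GV libraries 0, 0 and 1. WT MII held 40 and 0 counts (297 and 0 CPM), and Nat10-ZcKO MII held 37, 8 and 14 (197, 54.5 and 87.7 CPM). The level was again above the highest GV library, at 13.7 CPM, in 4 of 5 libraries.

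Vcan encodes versican, a large proteoglycan that binds hyaluronan, and was the one gene of the group with a clear level at GV. WT GV held 17, 59 and 23 counts (117, 211 and 239 CPM), and Nat10-ZcKO GV held 4, 0 and 46 (94.4, 0 and 166 CPM). WT MII held 129 and 1 counts (957 and 208 CPM), and Nat10-ZcKO MII held 122, 64 and 59 (649, 436 and 369 CPM). The single count of WT MII replicate 2 put its value below the highest GV library, and the other MII libraries were above all of them.

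Btc, the EGF-like ligand betacellulin, was at 0 in all GV libraries. WT MII held 7 and 0 counts, and Nat10-ZcKO MII held 8, 1 and 2. In Nat10-ZcKO MII replicates 2 and 3 the levels of 6.82 and 12.5 CPM were under the limits of 20.4 and 18.8 CPM. The highest level of Btc was 51.9 CPM in WT MII replicate 1. Areg had no count in any of the 11 libraries, which over the 4 deeper MII libraries together allows up to 4.77 CPM. Ereg had 2 counts in WT MII replicate 1 and none elsewhere. The other EGF-like ligands were thus not detectable at a depth at which Ptx3 gave 695 counts.

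Has2, the synthase that makes the hyaluronan itself, had 1 count among the GV libraries and 3 among the MII libraries, and Cd44, a cell surface receptor for hyaluronan, had 4 and 8. At 1.12 CPM in GV and 4.77 CPM in the 4 deeper MII libraries, Has2 was at or under the limit of detection at both stages. The synthase of the matrix was therefore barely counted where the genes for the proteins bound to it, Ptx3, Tnfaip6 and Vcan, were abundant.

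Each gene's stage difference was tested by an exact two-sided permutation test of mean CPM, with the stage labels permuted within genotype in 200 arrangements and a smallest possible p of 0.005. Over 9 tests, not adjusted, p was 0.02 by the exact permutation test for each of Ptx3, Tnfaip6, Ptgs2 and Btc, and 0.015 for Vcan. It was 0.82 for Has2, 0.745 for Cd44 and 0.4 for Ereg, and Areg could not be tested. Each of the 5 was above every GV library in 4 of 5 MII libraries, for Btc by as few as 1 count. Without WT MII replicate 2 each of the 5 reached 0.0125, the smallest p of the exact permutation test with 10 libraries. Without WT GV replicate 1, 2 or 3, or WT MII replicate 1, the exact permutation p was 0.05 for Ptx3, Tnfaip6, Ptgs2 and Btc and between 0.0333 and 0.05 for Vcan. Without Nat10-ZcKO GV replicates 1 and 2 it rose to 0.1 for Ptx3, Tnfaip6, Ptgs2 and Btc and 0.075 for Vcan, where the smallest possible was 0.025.

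The fold over pooled counts was 489 for Ptx3 (95% interval 135 to 4046), from 2 counts in GV. It was 46.4 for Ptgs2 (15.4 to 229), from 3 counts, and 3.54 for Vcan (2.92 to 4.31). Tnfaip6 and Btc, with no GV count, were at least 111-fold and at least 8.44-fold higher in MII, computed against 3 counts over the GV group. For Cd44 the ratio was 2.81 with an interval that included 1 (0.754 to 12.8). In a bulk library of footprints such differences can reflect more cells of a type, more RNA per cell or more ribosomes on each mRNA. These cannot be told apart here.

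In 4 MII libraries, leaving aside WT MII replicate 2, 5 of the 9 genes were above all 6 GV libraries, namely Ptx3, Tnfaip6, Ptgs2, Vcan and Btc. Over the 3863 genes with enough counts for a fit the share was 15.4%. Btc is not among those genes, and Ptx3, Tnfaip6 and Ptgs2 are there through their MII counts, so the list was not compared with that share. The exceptions were Has2, Cd44, Areg and Ereg, each with at most 12 counts in the 11 libraries.

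The same counts were fitted for all genes with edgeR's quasi-likelihood test over the 11 libraries, in which 4 of the 9 genes had enough counts (Ptx3, Tnfaip6, Ptgs2 and Vcan). Averaged over the genotypes, 993 of 3863 genes passed an adjusted p of 0.05, and 8.52% of the genes tested were called higher in MII. Of the 9 expansion genes 3 were called higher, none lower, 1 did not pass and 5 had too few counts. Ptx3, Tnfaip6 and Ptgs2 had 0 to 3 counts over the GV libraries and reached the count minimum through MII, so their number is not read against that share. By p-value Tnfaip6 ranked 1, Ptx3 ranked 2 and Ptgs2 ranked 5 among the 3863 genes. For the same reason these ranks are a description and carry no further support.

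The fitted MII minus GV difference on the log2 scale was 8.60 ± 1.40 for Ptx3 (SE, adjusted p = 1.43e-06 by edgeR) and 5.04 ± 0.93 for Ptgs2 (adjusted p = 4.09e-05). For Tnfaip6 the adjusted p was 6.82e-08. The GV counts are all 0 for Tnfaip6, and for Ptx3 those of WT are, so both fitted sizes depend on the prior count (DESeq2 gave 15.16 for Ptx3), and the pooled folds given above stand for them. Vcan differed by 1.92 ± 0.90 with an adjusted p of 0.0921 and did not pass. It passed without WT MII replicate 2 (2.52, adjusted p = 0.00903 by edgeR), without Nat10-ZcKO GV replicate 3 (2.72, 0.0390) and with libraries scaled by their totals alone (2.08, 0.0122). The median over all genes tested was -0.67.

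**Figure D2:**
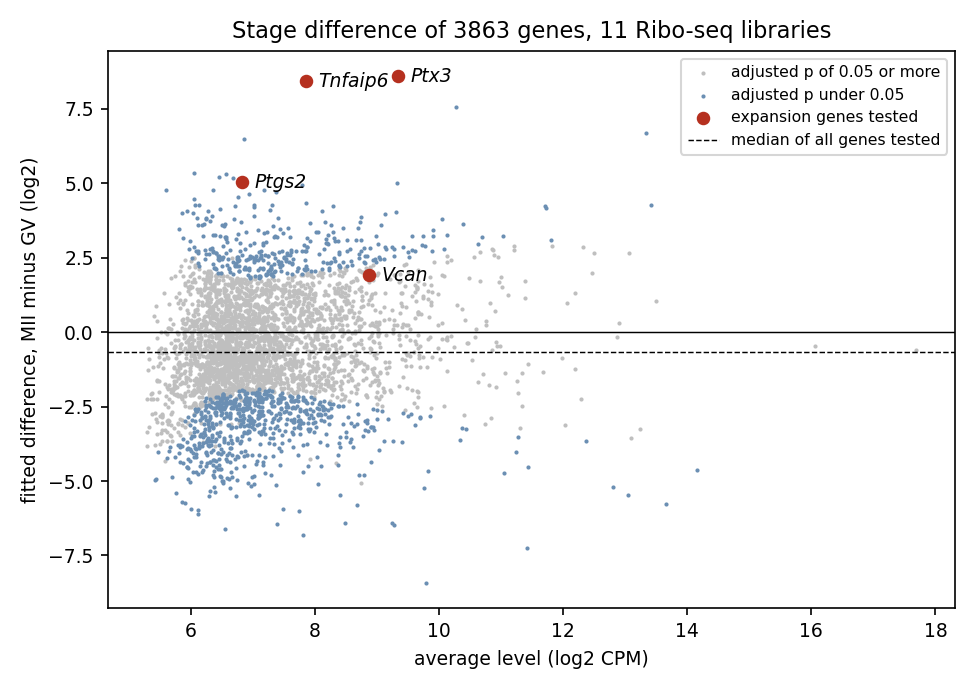
Fitted MII minus GV difference (log2, averaged over genotypes) against average level (log2 CPM) for the 3863 genes tested in the 11 Ribo-seq libraries, with genes past an adjusted p of 0.05 in blue and the median of all genes as a dashed line. Ptx3 at 8.60 and Tnfaip6 were the highest points, Ptgs2 was at 5.04 and Vcan at 1.92.

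Leaving out WT MII replicate 1 ended these calls, because WT MII replicate 2 was then the whole WT MII arm. Averaged over the genotypes no expansion gene was called, and the lowest adjusted p of the 4 was 0.598, for Vcan. In the other alternatives run on this comparison the 3 genes stayed called. The number of genes called among all tested fell from 993 to 447 without WT GV replicate 2 and to 547 and 565 without WT GV replicates 1 and 3. It was 558, 647 and 564 without Nat10-ZcKO MII replicates 1, 2 and 3.

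Within WT, 60 genes passed, of which 39 were higher in MII (1.01% of those tested). Ptx3 (adjusted p = 0.00232), Tnfaip6 (0.00232) and Ptgs2 (0.0203, all by edgeR) were among them, and Vcan was not (0.516). The pooled counts of WT MII replicate 1 over WT GV gave at least 367-fold for Ptx3, at least 96.6-fold for Tnfaip6, 77.3-fold for Ptgs2 (from 2 GV counts, upper bound 660) and 5.04-fold for Vcan (3.85 to 6.61). Ptx3 and Tnfaip6 had no count in any WT GV library, so leaving out 1 of these libraries could not test their fitted sizes. For Ptgs2 the fitted difference ranged from 4.26 to 7.61 without single WT GV libraries, against 4.99 with all. The calls were lost: without WT GV replicate 1, 2 or 3 none of the 3 genes passed, with adjusted p from 0.0594 to 0.208 by edgeR. Among all genes tested 2, 0 and 1 were then called. Without WT MII replicate 1 none of the 3 passed either, with 1131 genes called, and without Nat10-ZcKO MII replicate 2 Ptgs2 did not (0.0515), with 8. The count was 38 without WT MII replicate 2, 30 without Nat10-ZcKO MII replicate 1, and 195, 97 and 216 without Nat10-ZcKO GV replicates 1, 2 and 3.

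Within Nat10-ZcKO, 305 genes passed and 165 were higher in MII (4.27% of those tested). Ptx3 (adjusted p = 0.00719), Tnfaip6 (0.000897) and Ptgs2 (0.0103, all by edgeR) were again called higher, with Vcan at 0.186. The pooled folds were 154 for Ptx3 (42.3 to 1275), at least 40.3 for Tnfaip6, 44.3 for Ptgs2 (7.65 to 1779) and 3.68 for Vcan (2.70 to 5.09). With Nat10-ZcKO GV replicates 1 and 2, which stood apart, both left out, 1 library made up that GV arm. Tnfaip6 had no count in any Nat10-ZcKO GV library, so this omission could not test its fitted size. The fitted differences were then 7.32 for Ptx3 against 6.95 with all, 8.67 for Tnfaip6 against 8.52 and 4.50 for Ptgs2 against 5.08, and no expansion gene passed (adjusted p 0.196, 0.114 and 0.171 for Ptx3, Tnfaip6 and Ptgs2 by edgeR), and 9 genes were called in all. Without Nat10-ZcKO MII replicate 1, Ptgs2 did not pass (0.0671), and without WT MII replicate 1 or 2 Vcan did (0.0378 and 0.0444). The genes called numbered 74, 100 and 66 without Nat10-ZcKO MII replicates 1, 2 and 3, 167, 144 and 194 without WT GV replicates 1, 2 and 3, and 888 and 841 without WT MII replicates 1 and 2.

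Whether the stage difference itself differed between the genotypes was tested by the interaction. Of the 3863 genes 31 passed (0.802%), and none of the 4 expansion genes did. Vcan and Ptgs2 had counts at both stages in both genotypes, though Ptgs2 had 3 in GV. Vcan gave 1.02 ± 1.80 on the log2 scale (adjusted p = 0.857 by edgeR) and Ptgs2 0.094 ± 1.07 (0.981), which leaves a wide range of differences possible. Without WT MII replicate 1 Vcan was called (6.08, adjusted p = 0.0270), with 1209 genes called in all. The count was 0 without WT MII replicate 2, 65 without Nat10-ZcKO GV replicate 3, 19, 13 and 13 without WT GV replicates 1, 2 and 3, and 15, 12 and 18 without Nat10-ZcKO MII replicates 1, 2 and 3.

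At MII the 3 Nat10-ZcKO libraries were all below WT MII replicate 1 for 7 of the 9 genes. The same held for 20.4% of the 3863 genes with enough counts. Of the 7, only Ptx3, Tnfaip6, Ptgs2 and Vcan are among those 3863 genes. Btc, Cd44 and Ereg, with at most 8 counts in a library, are not, so the 7 are not read against that share. The ratio of pooled Nat10-ZcKO counts to WT MII replicate 1 was 0.392 for Ptx3 (95% interval 0.337 to 0.458), 0.585 for Tnfaip6 (0.442 to 0.781), 0.402 for Ptgs2 (0.265 to 0.617) and 0.518 for Vcan (0.417 to 0.646). For Btc it was 0.429 (0.152 to 1.30). These intervals cover counting error between libraries only, and with 1 deep WT MII library the difference has no replicate check.

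In the fit of the 5 MII libraries 4 of 2097 genes passed (0.191%), and none of the expansion genes did. The Nat10-ZcKO minus WT difference on the log2 scale was -0.68 ± 1.73 for Ptx3, -0.35 ± 1.10 for Tnfaip6, -1.14 ± 0.87 for Ptgs2 and -0.44 ± 1.44 for Vcan (SE), each with an adjusted p of 0.997 by edgeR. Without WT MII replicate 1 the comparison was with WT MII replicate 2 alone and turned around. The difference for Tnfaip6 was also above 0 with at least 1 count as the filter (0.094) and with all 11 libraries in 1 fit (0.15). Without WT MII replicate 1 all 4 genes were called higher in Nat10-ZcKO, with 1451 genes called in all. Without Nat10-ZcKO MII replicate 1, 2 or 3 no gene was called. At GV no gene of 1765 passed by edgeR (0%), with 93 at an unadjusted p under 0.05 and 13 called by DESeq2. Vcan was the one expansion gene that could be tested at GV (-0.76 ± 0.76, adjusted p = 0.908 by edgeR). Without Nat10-ZcKO GV replicate 3, 380 genes were called in all and Vcan was not among them.

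Within the group the mix of genes was similar in WT MII replicate 1 and Nat10-ZcKO MII replicates 1 and 3. Nat10-ZcKO MII replicate 2 differed in its Ptx3 and Vcan shares. Ptx3 took 52.6% of the group's counts in WT MII replicate 1 (285 of 542) and 46.9% (221 of 471), 36.9% (62 of 168) and 127 of 254 counts among Nat10-ZcKO replicates 1, 2 and 3. Tnfaip6 took 13.8% and 17.6%, 18.5% and 18.5%, and Ptgs2 7.38% and 7.86%, 4.76% and 5.51%. Nat10-ZcKO MII replicate 2, which had the lowest summed level of the 4, had the lowest Ptx3 share (95% interval 29.6% to 44.7%, Clopper-Pearson) and the highest Vcan share, at 38.1% against 23.2% to 25.9% in the others.

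Per length the order changed. In TPM, which scales counts to coding length and then to the library total, Ptx3 made up 51.5% to 63.3% of the group in the 4 deeper MII libraries, Tnfaip6 23.1% to 35.7% and Ptgs2 4.11% to 5.98%. Vcan, with the longest coding sequence, fell to 3.08% to 5.96%, and Btc, with one of the shortest, was at 1.79% to 4.41%. The mean TPM in Nat10-ZcKO MII was 905 ± 414 for Ptx3, 497 ± 176 for Tnfaip6, 80.9 ± 52.3 for Ptgs2, 62.0 ± 18.2 for Vcan and 50.3 ± 46.4 for Btc (SD, n = 3). The first and second ranks were held by the same genes in all 4 libraries, while Ptgs2, Vcan and Btc were within each other's spread.

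The stage of the cumulus signal was read against 17 granulosa or cumulus markers (such as Amh, Inha and Foxl2) that granulosa cells express without an ovulatory signal. Summed, these markers were present at both stages, at 3619 to 13739 CPM in GV and at 1960 to 5118 CPM in the 4 deeper MII libraries. Single markers differed in these MII libraries. Amh held 1, 4, 2 and 0 counts and Foxl2 5, 2, 3 and 0. Gja1 held 210, 377, 248 and 135 and Inha 125, 218, 77 and 33. Of the counts on the 8 expansion genes other than Vcan plus the 17 markers, the expansion genes took 0.257%, 0.104% and 0% in WT GV and 0.172%, 1.21% and 0.199% in Nat10-ZcKO GV. In MII they took 40.8% in WT replicate 1 and 26.6%, 17.4% and 38.4% in Nat10-ZcKO. The exact 95% intervals reached at most 3.51% in GV and started at 14.5% or above in those MII libraries. WT MII replicate 2 had 0 of 2 counts, with an interval up to 84.2%.

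**Figure D3:**
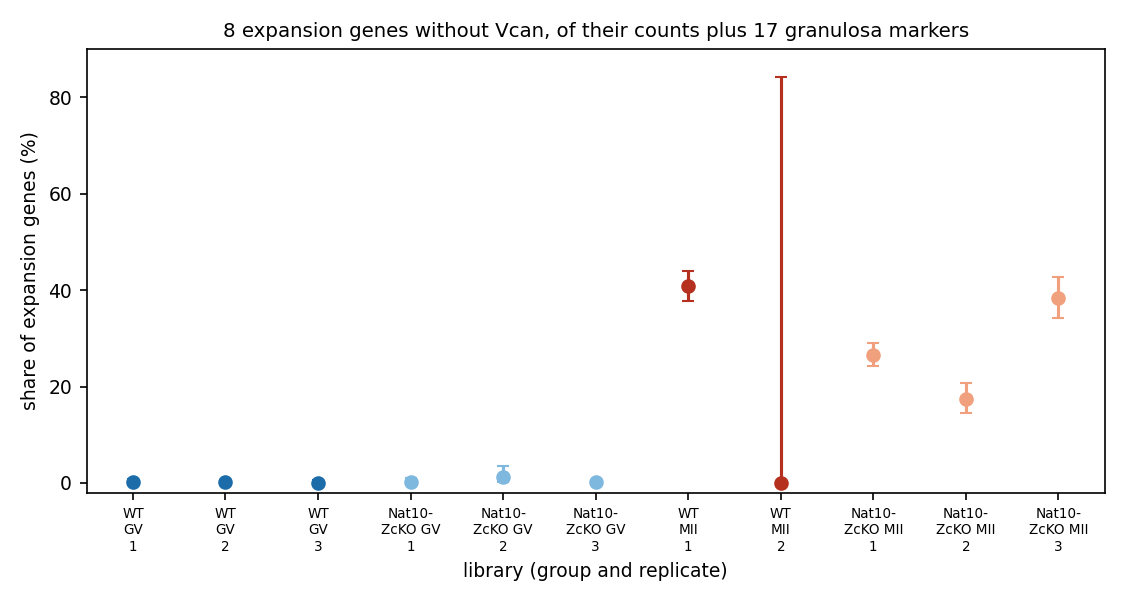
Share of the 8 expansion genes without Vcan in their counts plus those on 17 granulosa markers (%), for each Ribo-seq library, with exact 95% binomial intervals as bars. The 6 GV libraries sit at 0% to 1.21% and 4 MII libraries at 17.4% to 40.8%, and WT MII replicate 2 rests on 2 counts.

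Among the 17 markers, 13 could be tested for stage, none was called higher in MII and 4 were called lower, namely Amh, Amhr2, Foxl2 and Inhbb. Over all genes tested 17.2% were called lower. The median log2 difference of the markers was -1.58, against -0.67 over all genes tested. Of the markers of the oocyte 6 of 11 tested were lower in MII, including the zona pellucida genes Zp1, Zp2 and Zp3. Oosp1 and Gdf9 went the other way (2.76 and 0.97) without passing (adjusted p 0.0576 and 0.546 by edgeR). The summed share of the oocyte markers was 0.952% to 1.17% in the 4 deeper MII libraries. This was below the share in each GV library but Nat10-ZcKO GV replicates 1 and 2. Collagen genes of the theca and stroma list fell as well (3 of 3 tested), and 2 of 4 smooth muscle genes. Within WT no gene of the granulosa, oocyte, theca or stroma or smooth muscle lists was called. Within Nat10-ZcKO the 3 collagen genes, Acta2 and Tagln were called lower. So were Foxl2, Amh and Amhr2 among the granulosa markers and Oosp2 among the oocyte markers. In Nat10-ZcKO GV replicate 1 the theca or stroma markers summed to 5359 CPM and the smooth muscle markers to 3234 CPM. The other GV libraries held 433 to 928 and 686 to 986 CPM. The 4 deeper MII libraries held 6.26 to 74.2 and 59.3 to 170 CPM. Pecam1, an endothelial adhesion gene, rose (3.25 ± 0.87, adjusted p = 0.00442 by edgeR), the one endothelial marker of 5 that could be tested. It had 0 to 2 counts in each GV library and reached the count minimum through MII. Kdr had 0 to 4 counts in each GV library and 0 to 1 in each MII library, and Cdh5 had 0 to 4 and 0 to 3. Tek and Emcn had 1 and 0 counts in the 11 libraries, so Pecam1 alone does not speak for the endothelial list. Markers of leukocytes (0 to 260 CPM in sum) and erythroid cells (5 counts in the 11 libraries) could not be tested. Neither the oviduct epithelium marker nor the 2 adipocyte markers tested passed in the average over genotypes. Within Nat10-ZcKO the adipocyte gene Fabp4 was called lower in MII. The adipocyte markers summed to 5264 CPM in Nat10-ZcKO GV replicate 1 and to 28.9 to 948 CPM in the other GV libraries. The part of these shifts in the stage difference of the expansion genes was not tested.

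The wider ovulatory cascade, a list of 42 further genes from hormone receptors to proteases and matrix genes, gave 12 genes with enough counts. Averaged over the genotypes 6 rose in MII and 1 fell, against 8.52% and 17.2% of all genes tested, with a median log2 difference of 1.15 against -0.67. Among the risers, Runx2, Adamts4 and Adamts1 had 0 to 5 counts in each GV library and reached the count minimum through MII. Timp1 too had most of its counts in MII, with 0 to 3 in each GV library and 8 to 12 in each deeper MII library. The list is therefore not read against those shares or that median. Most of its counts came from Plat, which encodes tissue plasminogen activator and is also a classical stored message of the mouse oocyte that is translated during meiotic maturation. Plat had 9, 23 and 8 counts in WT GV and 4, 28 and 36 in Nat10-ZcKO GV, against 2340 and 10 for WT MII and 3720, 2382 and 3179 for Nat10-ZcKO MII. It rose by 6.68 ± 1.57 on the log2 scale (SE, adjusted p = 0.00137 by edgeR). Without Plat the list summed to 498 to 1723 CPM in GV and 595 to 1750 CPM in the 4 deeper MII libraries, so the stages overlapped.

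The other risers were Adamts1 (2.80 ± 0.77, adjusted p = 0.00532) and Adamts4 (4.78 ± 1.32, 0.00551), proteases that cut versican, the transcription factors Runx2 (4.48 ± 1.11, 0.00211) and Cebpb (1.82 ± 0.73, 0.0474), and the protease inhibitor Timp1 (2.85 ± 0.99, 0.0243, all by edgeR). Adamts1 had 56 counts in WT MII replicate 1, 7, 10 and 11 among the Nat10-ZcKO MII libraries, and 0 to 5 in each GV library. Cebpb had 27 and 26, 16 and 15 counts in the same MII libraries, and 2 to 9 in each GV library. Mapk3, the kinase ERK1, fell by 3.37 on the log2 scale (adjusted p = 0.00329). Adam17, the sheddase that frees EGF-like ligands, had 111 counts in the 11 libraries and did not pass.

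The oocyte sends its own part of the expansion signal through GDF9 and BMP15. Of the 9 genes of that list 6 could be tested and 1 rose in MII, the receptor gene Bmpr1b (2.38 ± 0.83, adjusted p = 0.0255 by edgeR). Of all genes tested 8.52% were called higher, so 1 call among 6 says little about the list. Bmpr1b had 0 to 12 counts in each GV library and reached the count minimum through MII. Gdf9 had 399, 929 and 289 counts in WT GV and 0, 87 and 436 in Nat10-ZcKO GV, against 711 and 0 for WT MII and 831, 628 and 751 for Nat10-ZcKO MII. Bmp15 had 11 to 77 counts in the 4 deeper MII libraries and 55 to 169 in WT GV. Nat10-ZcKO GV replicate 1 had no count of either.

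The genes whose pattern over 10 libraries (without WT MII replicate 2) was most like the summed group were sought among 3859 others, by Pearson's r of log2(CPM + 10). They were Med11 (r = 0.975), Pcsk5 (0.972), Usp19 (0.970), Fbxo33 (0.964) and Slc12a9 (0.963). Pcsk5, a proprotein convertase, had 0 to 3 counts in each GV library and 59, 89, 49 and 26 in the MII libraries. Usp19, a deubiquitinating enzyme, was counted at both stages, from 17 to 231 in GV and from 353 to 589 in MII. The 10 points share their libraries and the GV to MII contrast, so r describes that contrast and carries no test.

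acRIP-seq counted mRNA fragments rather than footprints, and only in WT GV oocytes. Counts on genes summed to 970997 with anti-ac4C and 116232 with anti-IgG, so that a count of 0 allows 3.09 CPM in the first and 25.8 CPM in the second. In the anti-ac4C library 8 of the 9 genes were counted, with 29 counts for Vcan, 15 for Ptx3, 14 for Areg, 13 for Tnfaip6, 10 for Ereg, 7 each for Has2 and Btc and 6 for Ptgs2. Cd44 had none. In the anti-IgG library Ptx3 had 3 counts and the other 8 genes had none.

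By the rule of at least 1 CPM and a ratio above 2, with a gene at 0 in IgG counted as above, 7 of the 9 genes were called, against 53.3% of the 11883 genes with a count. All 7 had no IgG count, as had 4838 of the 6337 genes called. The rule says little at this depth: the 9 genes summed to 101 anti-ac4C counts, and a ratio of 1 would have given 12.1 IgG counts where 3 were seen. For no gene was the lower bound of the exact interval above 2. Ptx3, the one with an IgG count, had a ratio of 0.599 (95% interval 0.169 to 3.23), and Vcan, with the most counts, had a lower bound of 0.882. At these counts enrichment of a single gene could not be resolved. Summed over the 9 genes the level was 104 CPM with anti-ac4C and 25.8 CPM with anti-IgG, the latter from the 3 counts of Ptx3.

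The anti-ac4C library gave a different picture of the GV stage from the footprints. The 8 genes other than Vcan had 72 counts there (74.2 CPM), against 4 counts over the 3 WT GV Ribo-seq libraries (7.68 CPM). Vcan went the other way, at 29.9 CPM with anti-ac4C and 190 CPM in the pooled WT GV footprints. Against the 17 granulosa markers the 8 genes took 5.17% (exact 95% interval 4.07% to 6.47%) in the anti-ac4C library and 0.122% (0.0333% to 0.312%) in the WT GV footprints. In the 4 deeper MII Ribo-seq libraries the share was 31.0% (29.4% to 32.5%), and in anti-IgG it was 1.47% (0.304% to 4.24%). Areg and Ereg, with 14.4 and 10.3 CPM in the anti-ac4C library, had no footprint at GV, where a count of 0 over the 3 WT libraries allows 5.76 CPM. The assays differ in input, in the part of the transcript counted and in the antibody, and with 1 library no replicate check is possible.

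**Figure D4:**
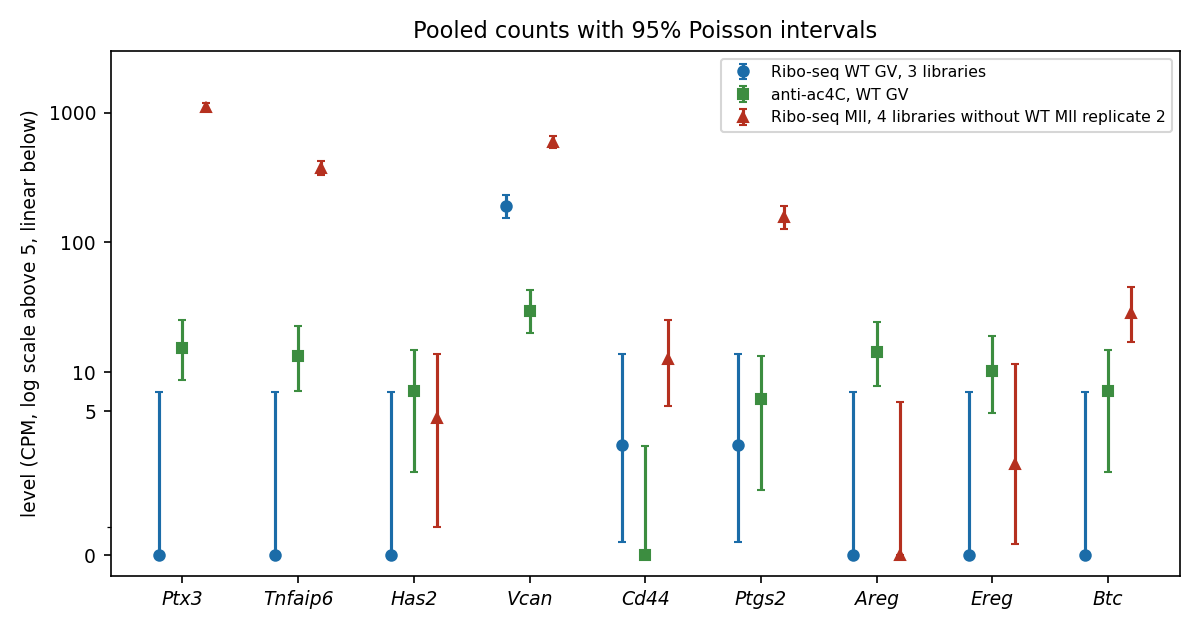
Level of each of the 9 genes (CPM, log scale above 5 and linear below) from pooled counts in WT GV Ribo-seq, the anti-ac4C library of WT GV oocytes and 4 MII Ribo-seq libraries, with 95% Poisson intervals as bars. Areg and Ereg were highest in the anti-ac4C library, at 14.4 and 10.3 CPM, and Ptx3 in MII, at 1105 CPM.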

How the data were processed

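Ribo-seq and acRIP-seq values are whole-number counts per gene that the authors deposited, 1 library a table, with no normalization. Those of Ribo-seq cover the CDS. The submitters' processing notes name cutadapt, STAR, HTSeq and mm10. Their versions, the strand setting, the removal of rRNA and the handling of PCR copies are not given in the sources used here. Without handling of PCR copies, counts after 18 cycles of amplification are not molecules. Rows that name no gene were left out of library sizes. Among these, 17.1% of all fragments with anti-ac4C and 46.7% with anti-IgG lay on no feature.

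Identifiers were matched without version to GENCODE M21 (22399 of 22442). Counts were scaled to CPM and TPM and tested by the quasi-likelihood method of edgeR 4.0.16 in R 4.3.3, using filterByExpr and TMM factors, with Benjamini-Hochberg adjustment over all genes tested and no block. The stage contrasts used all 11 libraries, and the genotype contrasts the 5 MII or the 6 GV libraries. SE is the log2 difference divided by the square root of F. Permutation tests, exact binomial (Clopper-Pearson) and Poisson intervals used scipy 1.17.1 in Python 3.11.15. The steps were tested on simulated data.

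Alternatives were DESeq2 1.42.0, library size only, a filter of at least 1 count, the replicate number as a block, each replicate left out, Nat10-ZcKO GV replicates 1 and 2 left out together, log2(CPM + 10), TPM, the 20 most abundant genes left out, and for acRIP-seq all fragments, TMM factors and the lower bound. For the permutation test and the summed level, the joint omission was chosen after seeing the data.

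The genes, marker lists and tests were chosen with earlier results of these data known. Named genes are the 9, the 5 most counted and all called genes of the cascade and oocyte-signal lists, and the 5 most alike in pattern, apart from 1 gene that is not reported here. Genes named from the marker lists were chosen after their values were seen.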

Additional observations from a re-analysis of the deposited data

How the results depend on the processing

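Averaged over genotypes, 993 genes were called, and 388 with at least 1 count, 1621 with DESeq2 (342 higher, 1279 lower) and 447 to 1296 with each replicate left out. The split of 329 higher and 664 lower became 779 and 363 without WT MII replicate 2 and 570 and 790 with library size only. In WT, 60 became 158 with library size only, 9 with at least 1 count, 431 with DESeq2 and 0 to 1131 with each replicate left out. In Nat10-ZcKO, 305 became 906, 25 and 1194, 66 to 888 with each replicate left out and 9 with Nat10-ZcKO GV replicates 1 and 2 left out together. For the interaction, 31 became 48, 10 and 49, 0 to 1209, and 1. DESeq2 called Ptx3 there (adjusted p = 6.16e-12), where WT GV counts are all 0. For genotype at MII, 4 became 44, 0 and 15, 0 to 1451, and 19 with all 11 libraries in 1 fit. For genotype at GV, 0 became 41 with at least 1 count, 13 with DESeq2, 0 to 380, 78 with both libraries left out and 23 with all 11. Median log2 differences over all genes moved from -0.67 to -0.57 (library size only) and -1.05 (DESeq2) in the stage average, and to -2.997 without WT MII replicate 1 and -0.33 without WT MII replicate 2.

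The labels number replicates in each group, but same-numbered libraries did not deviate together (correlations of deviations -0.09 to 0.15 over 15 pairs), so the numbers do not pair them. With the replicate block 328 genes were called in the stage average, 0 in WT, 109 in Nat10-ZcKO, 8 for the interaction, and 0 for genotype at MII. Ptx3, Tnfaip6 and Ptgs2 kept their calls in the stage average and in Nat10-ZcKO and lost them in WT (adjusted p 0.219, 0.219 and 0.233). The block turned the MII genotype difference to 1.07 for Ptx3, 0.84 for Tnfaip6 and 0.47 for Vcan.

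Without WT MII replicate 1 these turned around: Vcan in the stage average (-0.57) and in WT (-3.61), Ptgs2 in WT (-2.55), and the MII genotype difference of Ptx3 (9.72), Tnfaip6 (8.39), Ptgs2 (6.90) and Vcan (3.87). Tnfaip6 at MII was 0.094 with at least 1 count and 0.15 with all 11 libraries. The interaction of Vcan was -0.037 without WT MII replicate 2, 6.08 without WT MII replicate 1 and -0.080 with both Nat10-ZcKO GV libraries left out, where Vcan at GV was 0.026. That of Ptgs2, 0.094, was -0.52 with library size only, -0.49 with both libraries left out and -2.63 to 7.74 with each replicate left out. With each replicate left out the highest values were 2.72 for Vcan in the stage average, and 2.54 for Vcan and 7.61 for Ptgs2 in WT. The lowest at MII were -1.08 for Vcan, -1.50 for Ptx3, -1.64 for Ptgs2 and -0.91 for Tnfaip6. No cause was tested. With at least 1 count Ptgs2 lost its call in WT (adjusted p = 0.160) and Ptx3 and Ptgs2 theirs in Nat10-ZcKO (0.0558 and 0.0774, all by edgeR), and Btc was called in the stage average (4.86, adjusted p = 0.0280 by edgeR).

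Of the 9 genes, 5 had an exact permutation p under 0.05; this was 0 to 5 with each replicate left out and 0 with both Nat10-ZcKO GV libraries left out, where fewer arrangements raise the smallest p to 0.025. The MII over GV ratio of the summed level, 12.1, was 53.7 in TPM, where Vcan weighs less, and 8.72 to 14.8 with each replicate left out. By the lower bound 0 of the 9 genes were called in acRIP-seq.

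Depth limits the low genes: WT MII replicate 2 gave counts on 523 genes.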

Other observations

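The receptors upstream of the expansion genes were counted at low level at both stages. Lhcgr, the receptor for luteinizing hormone, had 1, 12 and 2 counts in WT GV and 1, 0 and 5 in Nat10-ZcKO GV, against 2 and 0 for WT MII and 1, 1 and 0 for Nat10-ZcKO MII. Egfr, the receptor for the EGF-like ligands, had 3, 9 and 0 and 4, 0 and 5 counts in GV, and 5 and 0 and 5, 7 and 3 in MII. Neither gene had enough counts for a fit. Pgr, Il6 and Ptger4, known from granulosa or cumulus cells of ovulating follicles, had 3, 0 and 0 counts in GV and 2, 0 and 0 in MII over the libraries of each stage. Sult1e1 had 6 counts in WT MII replicate 1 and none in the other 10 libraries. These genes were named after their values were seen.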
